A study of Mus musculus with 27 samples.

Results

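Full-length NFIA-expressing C2C12 cells were compared with control C2C12 cells at day 7 of adipocyte differentiation, over all genes. The comparison took every sample that the labels place at day 7 without forskolin with either full-length NFIA or the control construct, which gave 3 samples per group and 6 of the 27 samples of the series. C2C12 is an established mouse myoblast line, so all samples derive from 1 line, and the constructs were brought in with a pMXs retrovirus. The series also holds cells with a deletion mutant of NFIA (Δpro#3), samples at day 0 and samples after forskolin.

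The labels of both groups carry the same protocol, in which cells were kept from confluence for 48 hours in 10% FBS with 1 µM rosiglitazone, a ligand of the nuclear receptor PPARγ, 1 µM dexamethasone, 0.5 mM isobutylmethylxanthine, 125 nM indomethacin, 1 nM T3 and 850 nM insulin, and then in 10% FBS with the same insulin, T3 and rosiglitazone. The methods of the study give this recipe for another cell type and refer to earlier work for C2C12, and the treatment label of the samples reads none, so the exact medium of these cells is not certain. The comparison asks which genes differed with NFIA after the same days in culture. The labels do not say whether the 3 samples of a group were separate cultures or infections. The p-values therefore measure only the spread between samples of the same group.

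NFIA belongs to the nuclear factor I family, whose members bind a palindrome made of a TTGGC half-site and its reverse complement and which acts in brown adipocyte differentiation. Adipocyte differentiation is driven by PPARγ and C/EBPα, which switch on genes for lipid storage, lipolysis and secreted adipokines. Muscle differentiation is driven by MyoD, myogenin and MRF4 together with MEF2 proteins, which switch on the sarcomere, the excitation-contraction machinery and muscle-type energy metabolism.

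Polyadenylated RNA was sequenced, and expression is given in FPKM, fragments scaled to the length of the gene and to the total of the sample. The 6 samples held 9567769 to 20598872 fragments in genes (median 13478422). The 6 pairs of replicates differed by 3.13 to 6.57 in the chi-squared value per gene, where counting noise alone gives values close to 1. The pairs of mutant samples at day 7 differed by 14.4, 14.04 and 5.95. Of 24825 genes in the files, 12324 had a mean of at least 0.5 FPKM over the 9 samples at day 7 and were tested with limma on log2(FPKM + 1). The fit drew the spread of each gene from all 9 samples, the mutant samples included. Standard errors (SE) and p-values of limma thus do not rest on the compared groups alone. A gene is called higher or lower where its p-value, adjusted over all genes tested by the Benjamini-Hochberg method, lay under 0.05 with a change in FPKM + 1 of more than 3-fold. Fold changes on this scale understate the change of genes with low FPKM. Values in replicates are listed in the order 1, 2 and 3.

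Nfia itself (chromosome 4, 97439425 to 97868605, mouse build mm9) was read at 0.0885, 0.253 and 0.0885 FPKM in control cells. In full-length NFIA-expressing cells it was at 457, 528 and 459.6 FPKM, so Nfia was high only where the label names NFIA. The count does not separate transcripts of the retrovirus from those of the cell's own gene, nor full-length NFIA from the Δpro#3 mutant. Among the other family members, Nfix was at 17.9 ± 0.628 FPKM in control cells and 53.4 ± 2.29 FPKM in full-length NFIA-expressing cells (SD, n = 3 each), Nfic was at 60.6 and 47.2 FPKM, and Nfib was at 4.62 and 6.402 FPKM. None of these 3 genes was called.

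At day 7, 600 genes were called higher (4.87% of those tested) and 407 were called lower (3.30%). In all 600 and all 407, the samples of the groups did not overlap. These genes were picked for a large change with a small p-value, so this gives no further support. The share without overlap among all genes tested was not counted. Of the raised genes, 150 rose more than 10-fold and 49 more than 30-fold in FPKM + 1, against 44 and 5 of the lowered genes. The raised genes came from low levels, with a median of 2.46 FPKM in control cells and 28.3 FPKM with NFIA, and 239 of them were under 1 FPKM in control cells. The lowered genes had medians of 27.04 and 4.78 FPKM, and 84 were under 1 FPKM in full-length NFIA-expressing cells. The median log2 fold change of all genes tested was -0.08. An adjusted p under 0.05 without the fold threshold was reached by 3852 genes upwards and 5065 downwards.

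**Figure D1:**
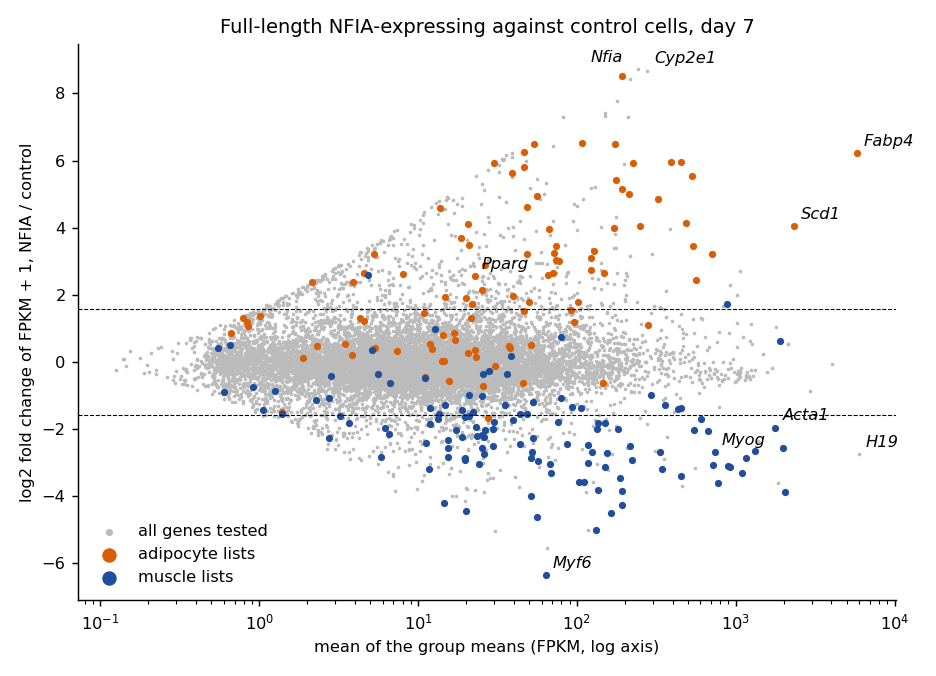
The log2 fold change of FPKM + 1 (full-length NFIA over control, day 7) is plotted against the mean of both group means in FPKM (log axis) for all 12324 genes tested, with the genes of 6 adipocyte lists in orange and 6 muscle lists in blue; dashed lines mark 3-fold. Orange points lie mostly above the upper line, up to Rbp4 at 8.52, and blue points mostly below the lower line, down to Myf6 at -6.35.

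On the log2(FPKM + 1) scale, the largest rise after Nfia belonged to Cyp2e1 (chromosome 7, 147949638 to 147960874), a cytochrome P450 that oxidizes ethanol and other small molecules. It was at 0.265, 0.308 and 0.442 FPKM in control cells and at 500.2, 643 and 509 FPKM in full-length NFIA-expressing cells (log2 fold change 8.68 ± 0.24 SE, adjusted p = 8.32e-10). Rbp4 (chromosome 19, 38191110 to 38199811), the plasma carrier of retinol, had 3 fragments in the 3 control samples together and was at 366, 418 and 374 FPKM with NFIA, a ratio of 7455-fold (95% exact counting interval 2551 to 36155). With a pseudocount of 0.1 the log2 fold change of Rbp4 was 11.39 and that of Cyp2e1 10.31, so their order depends on the scale. Every NFIA sample of both genes was far above every control sample.

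The next largest rises on the FPKM + 1 scale were Entpd2, an ectonucleotidase that hydrolyses extracellular ATP, from 0.252 to 430.5 FPKM, Clec3b, the plasminogen-binding tetranectin, from 0.659 to 358 FPKM, and Wfdc21, a secreted whey acidic protein, from 0.771 to 298 FPKM. Ifi27l2a, an interferon-inducible gene, rose from 0.891 to 299 FPKM. Slurp1, a secreted Ly6-type protein, had 1 fragment in the control samples and 158, 161 and 170.4 FPKM with NFIA, a ratio of 3742-fold (95% exact counting interval 671 to 147832). All 5 genes were under 1 FPKM on average in control cells.

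The largest fall on the same scale was that of Myf6 (chromosome 10, 106929916 to 106931785), which encodes the muscle regulatory factor MRF4. It was at 109.7, 114 and 156 FPKM in control cells and at 0.502, 0.428 and 0.701 FPKM with NFIA (log2 fold change -6.35 ± 0.12 SE, adjusted p = 1.09e-10). Of the next largest falls, 5 were in genes of muscle structure or metabolism. Mybpc1 and Mybpc2, the slow and fast myosin-binding proteins C, fell from 258 to 7.03 FPKM and from 39.1 to 0.831 FPKM, and Tcap, the titin cap of the Z-disc, from 109 to 3.48 FPKM. Pgam2, the muscle phosphoglycerate mutase, fell from 314 to 12.8 FPKM, and Nmrk2, a muscle kinase of nicotinamide riboside, from 229 to 6.18 FPKM. The remaining 2 were Ctla2b, a small cathepsin inhibitor, from 59.9 to 0.833 FPKM, and 4930486L24Rik, from 127 to 1.73 FPKM.

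The promoters of genes at both ends of this order are shown because they let the reader see the letters of the motif that the introduced factor binds and of the E-box CAGCTG that myogenic factors bind. RefSeq promoters (build GRCm38.p6) were searched over the 250 bases before the start for the half-site TTGGC and its reverse complement GCCAA, which covers both strands, and for CAGCTG, which reads the same on both strands. Each is printed 5′ to 3′ on the strand of its gene, with the half-sites of Cyp2e1 and Rbp4 and the E-boxes of Mybpc1 and Pgam2 in capitals. The table lists 2 promoters for Rbp4, of which 1 is printed.
Cyp2e1 (chr7:140763569-140763818, plus strand): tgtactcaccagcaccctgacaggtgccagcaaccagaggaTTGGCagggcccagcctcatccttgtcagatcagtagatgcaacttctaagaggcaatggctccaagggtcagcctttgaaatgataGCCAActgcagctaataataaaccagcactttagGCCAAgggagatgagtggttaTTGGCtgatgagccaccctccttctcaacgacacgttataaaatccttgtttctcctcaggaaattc
Rbp4 (chr19:38125322-38125571, minus strand): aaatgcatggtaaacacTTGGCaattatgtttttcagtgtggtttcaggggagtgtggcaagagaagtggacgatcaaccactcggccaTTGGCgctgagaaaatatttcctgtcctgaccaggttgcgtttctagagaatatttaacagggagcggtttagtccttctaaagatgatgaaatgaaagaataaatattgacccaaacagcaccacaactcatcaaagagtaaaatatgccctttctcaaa
Mybpc1 (chr10:88605153-88605402, minus strand): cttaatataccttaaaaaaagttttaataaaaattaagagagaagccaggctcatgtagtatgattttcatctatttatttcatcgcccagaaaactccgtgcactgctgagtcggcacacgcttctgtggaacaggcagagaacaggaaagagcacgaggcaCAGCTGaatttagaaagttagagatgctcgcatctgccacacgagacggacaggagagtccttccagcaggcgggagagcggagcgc
Pgam2 (chr11:5803797-5804046, minus strand): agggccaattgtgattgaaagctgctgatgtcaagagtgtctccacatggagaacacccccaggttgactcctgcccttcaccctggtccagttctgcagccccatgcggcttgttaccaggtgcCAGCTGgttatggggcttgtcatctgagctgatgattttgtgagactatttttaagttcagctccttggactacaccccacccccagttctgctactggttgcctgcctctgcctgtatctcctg
Cyp2e1 held 4 half-sites and Rbp4 2. Of all 32851 promoters in the table, 0.505% held at least 4 half-sites, 11.5% at least 2 and 41.5% at least 1. Mybpc1 and Pgam2 held 1 CAGCTG each, which 13% of all promoters did. Pgam2 also held 1 half-site, left in lower case, and Mybpc1 held 0, while neither Cyp2e1 nor Rbp4 held a CAGCTG. The 4 promoters were taken as the first of the largest rises and falls named here that are in the table with at least 2 half-sites or 1 E-box, so their matches belong to how they were chosen. The full NFI palindrome, TTGGC and GCCAA with 5 bases of any kind between them, was in 12 promoters and the DR1 repeat, AGGTCA and AGGTCA with 1 base between them on either strand, in 11. The table held a promoter for 71.2% of the raised, 68.8% of the lowered and 78.2% of the tested genes, below 80%, so shares of motifs were not compared between these sets.

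Adipocyte RNA took a larger share of the samples with NFIA and muscle RNA a smaller one. The 6 lists of adipocyte transcription factors, lipid droplet, fatty acid, triglyceride, lipolysis and adipokine genes hold 108 genes, which took 0.749, 0.759 and 0.752% of all fragments in control cells and 6.59, 7.05 and 6.59% with NFIA. The 6 muscle lists, of 130 genes, took 7.38, 7.46 and 8.46% in control cells and 2.298, 1.94 and 2.11% with NFIA. For both measures the groups did not overlap, and the exact 2-sided permutation test of 3 against 3 samples gave p = 0.10, the smallest it allows. The lists were chosen with earlier results of these data known, so this test gives no independent support. In bulk RNA, more or fewer cells of a type and more or less RNA per cell cannot be told apart, and this holds for all results that follow.

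Of 18 adipogenic transcription factors tested, 5 were called higher and 0 lower, with a median log2 fold change of 0.99 against -0.08 for all genes. Pparg, the nuclear receptor that drives adipocyte differentiation, was at 5.85, 5.32 and 6.68 FPKM in control cells and 40.4, 40.4 and 37.8 FPKM with NFIA (log2 fold change 2.55 ± 0.0752 SE, adjusted p = 1.18e-09). Cebpa, its partner, was at 8.31, 8.46 and 9.11 and 91.1, 91.3 and 84.7 FPKM (log2 fold change 3.23 ± 0.16 SE, adjusted p = 3.38e-08). Every NFIA sample was above every control sample for both.

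The other called factors were Nr1h3, the oxysterol receptor LXRα, from 1.34 to 39.6 FPKM, Srebf1, the driver of fatty acid synthesis genes, from 11.7 to 136 FPKM, and Stat5a from 9.54 to 33.9 FPKM. Not called were Zfp423, a factor of preadipocytes, at 0.121 and 1.91 FPKM (log2 fold change 1.38 ± 0.0878 SE, adjusted p = 2.47e-07, under 3-fold on the FPKM + 1 scale), Ebf1 at 9.61 and 14.2 FPKM, Cebpb at 22.2 and 24.4 FPKM, Cebpd at 4.48 and 6.17 FPKM, and Nr3c1, the glucocorticoid receptor, at 18.6 and 22.7 FPKM. Klf15 was at 2.09 and 6.58 FPKM (log2 fold change 1.29, under 3-fold on the FPKM + 1 scale), and Ebf2, a brown preadipocyte factor, was listed at 0 or close to 0 in every sample.

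Genes that store lipid rose in most cases. Of 17 lipid droplet genes, 10 were called higher and 0 lower (median 2.65). Of 21 genes of fatty acid and triglyceride synthesis, 17 were called higher and 0 lower (median 3.04), and of 15 genes of fatty acid uptake and binding 7 and 0 (median 1.54).

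Fabp4, the fatty acid carrier of adipocytes, was the most abundant RNA per length in full-length NFIA-expressing cells. It was at 142, 161 and 150.3 FPKM in control cells and at 11235, 12147 and 10778 FPKM with NFIA (log2 fold change 6.23 ± 0.46 SE, adjusted p = 7.34e-07). Scd1, the stearoyl-CoA desaturase that ranked next, was at 249, 273 and 275 and 4164, 4732 and 4280.2 FPKM (log2 fold change 4.04 ± 0.16 SE, adjusted p = 7.18e-09). Control cells thus held these RNAs too, at levels above 100 FPKM.

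Plin1, the perilipin that coats the droplet, was at 2.98, 2.64 and 2.76 FPKM in control cells and 368, 325 and 337 FPKM with NFIA (log2 fold change 6.50 ± 0.29 SE, adjusted p = 1.80e-08), and Cidec, which fuses droplets, at 9.66, 13.5 and 11.3 and 744, 783 and 770.0 FPKM. Plin2, Plin4 and Plin5 rose as well, while Plin3, the perilipin of most cell types, was at 42.5 and 60.3 FPKM. Fitm1, the muscle form of a lipid droplet inducer, was at 2.52 and 0.246 FPKM (log2 fold change -1.50, under 3-fold on the FPKM + 1 scale), and Fitm2, the widespread form, was at 23.9 and 69.6 FPKM.

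The path from citrate to triglyceride rose at most steps. Acly, which makes acetyl-CoA, rose from 25.1 to 221 FPKM, Acaca, which carboxylates it, from 7.91 to 32.4 FPKM, and Fasn, the fatty acid synthase, from 19.3 to 324 FPKM. Glycerol phosphate supply rose through Gpd1, from 13.3 to 888 FPKM, and acylation through Agpat2, from 20.54 to 624 FPKM, and Dgat2, from 7.17 to 348 FPKM. Pck1, the rate-limiting enzyme of glyceroneogenesis, had 1 fragment in the control samples and 57.6, 62.4 and 61.2 FPKM with NFIA, a ratio of 6981-fold (95% exact counting interval 1253 to 275787). Not called were Gpam, the mitochondrial acyltransferase of the first acylation step (31.1 and 43.4 FPKM), Scd2 (178 and 384 FPKM), Elovl5 (31.9 and 29.3 FPKM) and Gk, the glycerol kinase (1.77 and 2.85 FPKM). Scd1 and Scd2 have similar sequences, and only reads that map uniquely were counted.

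For uptake, Lpl, the secreted lipoprotein lipase, rose from 174 to 946 FPKM (log2 fold change 2.44 ± 0.12 SE, adjusted p = 2.91e-08), Cd36, a fatty acid transporter, from 16.3 to 139 FPKM (log2 fold change 3.01 ± 0.19 SE, adjusted p = 1.96e-07), and Fabp5 from 21.6 to 1042 FPKM. Slc27a1, the transporter FATP1, was at 19 and 12.4 FPKM and was not called.

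**Figure D2:**
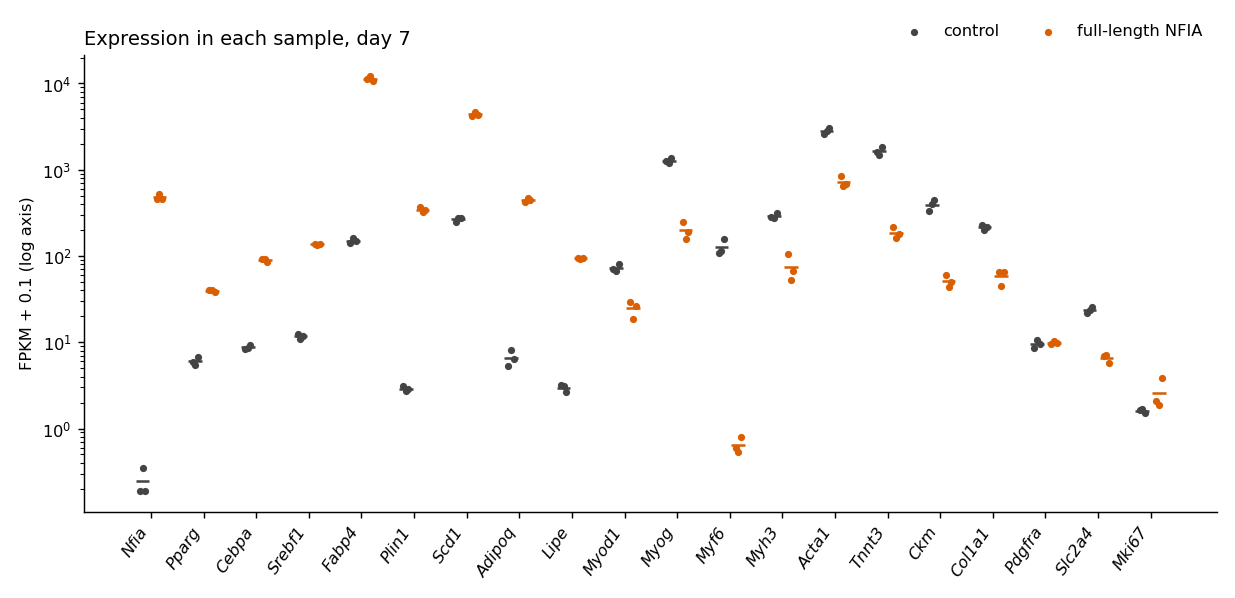
FPKM + 0.1 (log axis) of 20 genes in each of the 3 control samples (grey) and 3 full-length NFIA-expressing samples (orange) at day 7; points are samples and bars are group means. Fabp4 reaches 11386 FPKM with NFIA, Myf6 drops to 0.544 FPKM, Acta1 stays at 727 FPKM, and the groups overlap for Pdgfra.

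Lipolysis genes rose at the lipases. All 3 lipases of the triglyceride cascade were called higher, namely Pnpla2 from 27.5 to 469 FPKM, Lipe from 2.89 to 93.9 FPKM and Mgll from 0.606 to 77.8 FPKM. Over the list, 5 of 11 genes were called higher and 1 lower (median 1.29, which ranged from 0.33 to 2.66 over the alternatives, lowest with no filter on low values and highest with limma-voom). Adrb3, the β3-adrenergic receptor of adipocytes, which starts the cascade, was at 0.04697, 0.0213 and 0.0305 FPKM in control cells and 1.496, 1.88 and 1.25 FPKM with NFIA (log2 fold change 1.29, adjusted p = 1.02e-05 by limma, under 3-fold on the FPKM + 1 scale).

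The type II regulatory subunits of protein kinase A were called in opposite directions. Prkar2b, the form abundant in adipose tissue, was at 18.4, 20.6 and 17.4 FPKM in control cells and 126, 126 and 118 FPKM with NFIA, and Prkar2a was at 41.4, 42.1 and 44.1 and 13.1, 11.5 and 12.9 FPKM, the only lipolysis gene called lower. Their ratio was 0.445, 0.489 and 0.395 in control cells and 9.61, 10.9 and 9.16 with NFIA, given as a description with no test because the pair was chosen for its opposite calls.

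Of 15 adipokine and secreted adipocyte genes tested, 13 were called higher and 0 lower (median 3.96). Adipoq (adiponectin) was at 5.17, 8.05 and 6.23 FPKM in control cells and 423, 467 and 443 FPKM with NFIA (log2 fold change 5.91 ± 0.47 SE, adjusted p = 1.22e-06), Retn (resistin) at 0.408, 0.739 and 0.796 and 90.2, 90.4 and 94.4 FPKM, and Cfd (adipsin) at 0.142, 0.129 and 0.3701 and 101, 113 and 107 FPKM. Adig (adipogenin), a small adipocyte protein, rose from 1.37 to 213 FPKM and Agt, the precursor of angiotensin, from 2.57 to 109 FPKM. Lep (leptin), the hormone of large white adipocytes, had no fragment in the control samples and 13 over the 3 NFIA samples, at 0.128, 0.0745 and 0.108 FPKM, and was below the level tested. Fgf21 was high in both groups, at 177 and 114 FPKM.

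Genes of insulin response and glucose entry split. Of 14 genes, 2 were called higher and 2 lower (median 0.38). Slc2a4, the insulin-responsive glucose transporter of muscle and fat, was lower with NFIA, at 21.5, 23.7 and 25.6 FPKM in control cells and 6.75, 7.06 and 5.71 FPKM with NFIA (log2 fold change -1.71 ± 0.0981 SE, adjusted p = 1.10e-07). The Rab GTPase-activating proteins that hold its vesicles were called in opposite directions, with Tbc1d1 at 32.98, 30.7 and 29.7 and 6.68, 5.97 and 7.08 FPKM, and Tbc1d4 (AS160) at 2.204, 3.16 and 1.99 and 14.9, 15.5 and 15.1 FPKM. The ratio of Tbc1d4 to Tbc1d1 was 0.0668, 0.103 and 0.0671 in control cells and 2.23, 2.603 and 2.14 with NFIA, again with no test. The insulin receptor, Insr, was at 10.7 and 11.1 FPKM.

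Brown fat genes were in part too low to test. Of 25 genes listed, 14 were above the level tested, and 4 of these were called higher and 0 lower (median 0.33, or 0.60 without control replicate 1, and 0.15 to 0.60 over all alternatives). At an adjusted p under 0.05 without the fold threshold, 7 were higher and 4 lower, against 3852 and 5065 of all 12324 genes tested. Among the genes not tested, Ppara, a nuclear receptor of fatty acid oxidation genes, was at 0.0533 and 0.648 FPKM, and Kcnk3, a potassium channel, at 0 and 0.401 FPKM. Ucp1, the uncoupling protein of brown fat, had 0 fragments in all 6 samples, which allows up to 0.0439 FPKM over the 3 NFIA samples together (3 fragments, counting error only). Prdm16, its co-regulator, was at 0 and 0.00527 FPKM. Ppargc1a (PGC-1α) was at 0.946, 1.25 and 1.04 FPKM in control cells and 4.297, 4.25 and 4.16 FPKM with NFIA (log2 fold change 1.34 ± 0.0794 SE, adjusted p = 1.45e-07), under 3-fold on the FPKM + 1 scale. Called higher were Cidea, a droplet protein of brown fat, from 0.175 to 27.2 FPKM, Slc36a2, an amino acid transporter, from 0.9197 to 20.6 FPKM, P2rx5, a purinergic channel, from 4.07 to 14.5 FPKM, and Cox8b, the cytochrome oxidase subunit shared by muscle and brown fat, from 85.8 to 315 FPKM.

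In fatty acid oxidation, 9 of 21 genes were called higher and 0 lower (median 1.33), and all 21 were higher at an adjusted p under 0.05. Acadm, the medium-chain dehydrogenase, rose from 42.3 to 387 FPKM and Acaa1b, a peroxisomal thiolase, from 1.75 to 53.6 FPKM, while Acadvl, the very-long-chain dehydrogenase, was at 79.3 ± 2.46 FPKM in control cells and 162 ± 2.36 FPKM in full-length NFIA-expressing cells (SD, n = 3 each) and was not called. Acaa1a and Acaa1b have near-identical sequences, so their split is uncertain. Of 36 subunits of oxidative phosphorylation, none was called in either direction by limma, although 26 were higher and 4 lower at an adjusted p under 0.05 without the fold threshold (median 0.30). Without the fold threshold, 3852 of all 12324 genes tested were higher and 5065 lower. In cholesterol synthesis and uptake, 6 of 19 were called higher and 0 lower (median 0.96), led by Insig1, the sterol-sensing brake of SREBP processing, from 11.4 to 188 FPKM, and Pmvk, the phosphomevalonate kinase, from 8.86 to 90.6 FPKM.

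**Figure D3:**
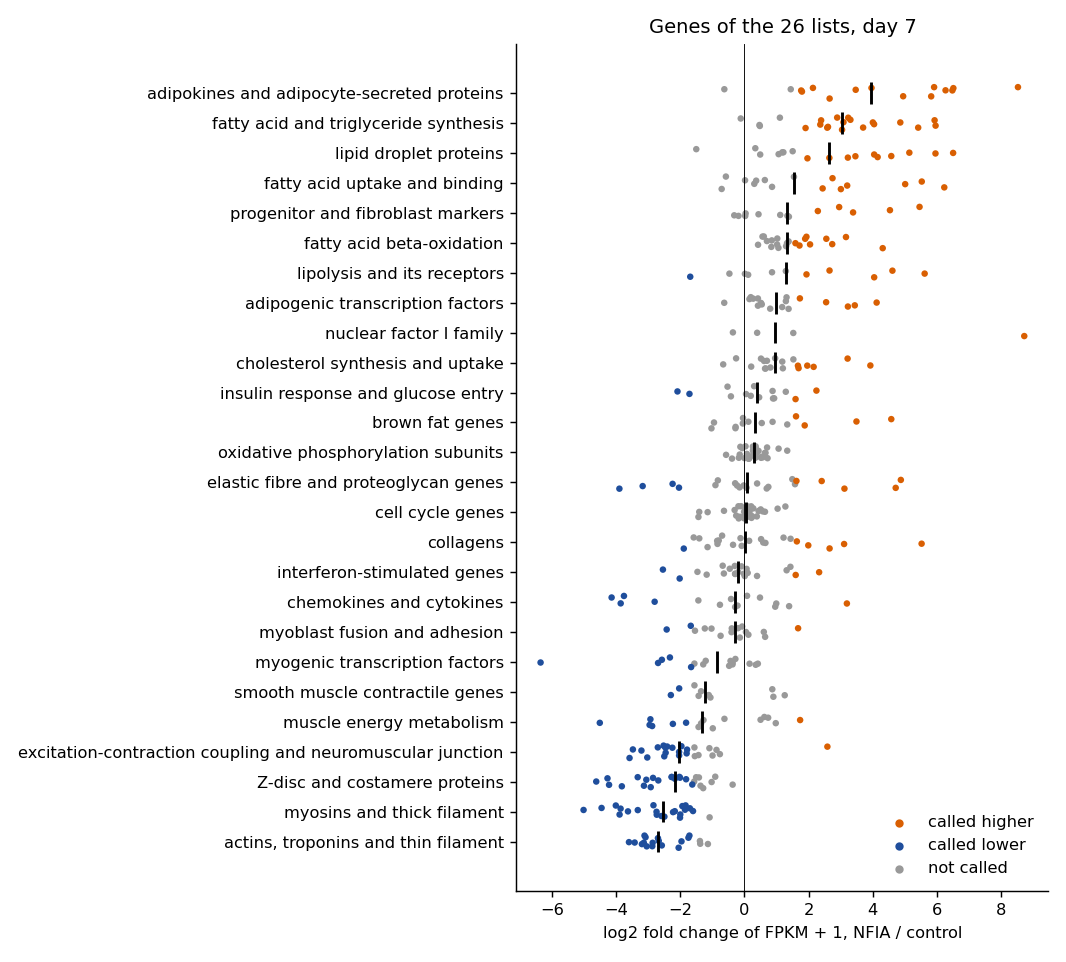
The log2 fold change of FPKM + 1 (full-length NFIA over control, day 7) of every tested gene of 26 lists, ordered by their medians (black ticks); orange and blue points are genes called higher and lower, and grey points were not called. Medians run from 3.96 for adipokines to -2.69 for actins, troponins and the thin filament.

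Most genes of the sarcomere fell, while most myogenic transcription factors were not called. At an adjusted p under 0.05 by limma without the fold threshold, 12 of these factors were lower and 3 higher. Among all 12324 genes tested, 5065 were lower and 3852 higher by that rule. Of 16 myogenic transcription factors, 5 were called lower and 0 higher (median -0.84). Besides Myf6, these were Myog (myogenin) at 1254, 1198 and 1374 FPKM in control cells and 248, 159 and 192 FPKM with NFIA (log2 fold change -2.69 ± 0.19 SE, adjusted p = 6.46e-07), Myf5 from 27.04 to 3.74 FPKM, Mef2c from 26.2 to 4.45 FPKM and Tead4 from 30.4 to 9.02 FPKM. Every NFIA sample of Myog was below every control sample, with NFIA replicate 2 the lowest.

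Myod1, which encodes MyoD, was at 71.3, 67.2 and 81.02 FPKM in control cells and 29.5, 18.3 and 25.9 FPKM with NFIA (log2 fold change -1.56 ± 0.17 SE, adjusted p = 1.70e-05), just under 3-fold, and was not called. The ratio of Myog to Myod1 was 17.6, 17.8 and 16.96 in control cells and 8.4, 8.72 and 7.395 with NFIA, without overlap (exact permutation test, 2-sided, p = 0.10, the smallest possible). This pair was chosen with earlier results of these data known, so its test gives no independent support. Mef2d, a partner of the myogenic factors, was at 30.8 and 25.2 FPKM.

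Of 22 genes of myosins and the thick filament, 21 were called lower and 0 higher (median -2.54). Myh3, the embryonic heavy chain, was at 281, 275 and 316 FPKM in control cells and 105, 53.01 and 66.4 FPKM with NFIA (log2 fold change -2.00 ± 0.21 SE, adjusted p = 1.15e-05), and Myh8, the perinatal chain, at 339, 349 and 391 and 29.9, 20.6 and 21.9 FPKM (log2 fold change -3.86 ± 0.13 SE, adjusted p = 2.28e-09). Myl4, the embryonic light chain, was at 1348, 1361 and 1563 and 137, 99.3 and 109 FPKM. The adult fast chains fell together with the developmental ones, with Myh1 from 271 to 39.9 FPKM, Myh2 from 20.9 to 5.77 FPKM and Myh4 from 46.2 to 6.07 FPKM. The ratio of adult (Myh1, Myh2, Myh4) to developmental (Myh3, Myh8) FPKM was 0.498, 0.509 and 0.548 in control cells and 0.428, 0.6201 and 0.585 with NFIA, with overlap between the groups (exact permutation test, 2-sided, p = 0.70). These chains have similar sequences, and only uniquely mapped reads were counted.

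Of 19 genes of actins, troponins and the thin filament, 16 were called lower and 0 higher (median -2.69). Acta1, skeletal α-actin, was at 2582, 2828 and 3066 FPKM in control cells and still at 837, 653 and 692 FPKM with NFIA (log2 fold change -1.96 ± 0.10 SE, adjusted p = 5.78e-08). Tnnt3, the fast troponin T, was at 1606, 1481 and 1853 and 218, 162 and 181 FPKM (log2 fold change -3.13 ± 0.12 SE, adjusted p = 5.18e-09). Lmod2 and Tnnt1, a leiomodin and the slow troponin T, fell from 204 to 15.9 FPKM and from 822 to 76.1 FPKM. Tpm2 and Tpm3, tropomyosins found outside skeletal muscle as well, were at 658 and 253 FPKM and at 154 and 58.6 FPKM and were not called.

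In the Z-disc and costamere, 17 of 25 genes were called lower and 0 higher (median -2.17). Csrp3, the muscle LIM protein, was at 336, 341 and 424 FPKM in control cells and 15.4, 16.7 and 22.7 FPKM with NFIA, whereas Des (desmin) was at 631, 578 and 673 and 252, 202 and 252 FPKM and was not called. The sarcoglycans Sgca and Sgcb were also not called, with values of 34.3 and 16.4 FPKM and of 41.1 and 31.6 FPKM.

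In excitation-contraction coupling and the neuromuscular junction, 16 of 24 genes were called lower and 1 higher (median -2.03). Ryr1, the calcium release channel, fell from 28.5 to 6.29 FPKM, and the calcium stores Casq1 and Casq2 from 191 to 14.97 FPKM and from 344 to 30.03 FPKM. Of the acetylcholine receptor subunits, Chrng and Chrnd fell from 209 to 25.02 FPKM and from 91.6 to 13.4 FPKM, while Chrna1 was at 102, 113 and 112 FPKM in control cells and 45.2, 48.4 and 59.1 FPKM with NFIA and was not called. Sln (sarcolipin), an inhibitor of the calcium pump, was the 1 gene called higher, at 0.252, 0.457 and 1.15 FPKM in control cells and 4.82, 13.4 and 9.09 FPKM with NFIA (log2 fold change 2.59 ± 0.31 SE, adjusted p = 3.22e-05). Its pump, Atp2a1, fell from 618 to 66.4 FPKM.

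Muscle energy metabolism fell in part. Of 16 genes, 6 were called lower and 1 higher (median -1.31). Ckm, the muscle creatine kinase, was at 332, 402 and 446 FPKM in control cells and 59.4, 43.1 and 50.1 FPKM with NFIA (log2 fold change -2.93 ± 0.14 SE, adjusted p = 2.72e-08), and Pygm, the glycogen phosphorylase, fell from 101 to 12.2 FPKM. Ldha, a lactate dehydrogenase subunit of glycolytic tissues, rose from 406 to 1353 FPKM (log2 fold change 1.74 ± 0.0608 SE, adjusted p = 3.22e-09), and Ckb, the brain-type creatine kinase, was at 8.296 and 17.2 FPKM.

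Most genes of myoblast fusion and adhesion were not called. Of 16, 2 were called lower and 1 higher (median -0.30). Mymk (myomaker), the membrane protein that fuses myoblasts, was at 358, 373 and 402 FPKM in control cells and 145, 89.2 and 126 FPKM with NFIA (log2 fold change -1.67 ± 0.15 SE, adjusted p = 3.84e-06). This call was lost without NFIA replicate 2, with a log2 fold change of -1.47, and with scaling of the samples by their median ratio (-1.57). Itgb1bp2 (melusin) fell from 89.9 to 15.95 FPKM. Ehd2, which shapes caveolae at the membrane, rose from 76.2 to 245 FPKM.

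Collagen genes were called in both directions, with the share called lower close to that of all genes (3.30%). Of 22 collagen genes, 5 were called higher and 1 lower (median 0.03). Col1a1, the main chain of fibrillar collagen I, was at 231, 203 and 216 FPKM in control cells and 65.9, 45.04 and 64.5 FPKM with NFIA (log2 fold change -1.89 ± 0.16 SE, adjusted p = 2.52e-06), whereas its partner Col1a2 was at 412 ± 33.5 FPKM in control cells and 322 ± 25.1 FPKM in full-length NFIA-expressing cells (SD, n = 3 each) and was not called. Raised were Col15a1, of the basement membrane zone, from 0.6996 to 77.04 FPKM, Col5a3 from 2.87 to 32.3 FPKM, Col4a1 from 80.8 to 324 FPKM, Col6a2 from 55.4 to 353 FPKM and Col14a1 from 0.317 to 3.09 FPKM. The chains of collagen IV and VI that share a trimer with these, Col4a2 and Col6a1, were at 56.4 and 133 FPKM and at 242 and 658 FPKM and fell short of 3-fold.

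Of 21 elastic fibre and proteoglycan genes, 5 were called higher and 4 lower (median 0.07). The small leucine-rich proteoglycans parted, with Fmod (fibromodulin) at 0.0841, 0.0571 and 0.109 FPKM in control cells and 28.9, 34.5 and 29.3 FPKM with NFIA, Prelp from 6.15 to 187 FPKM, Aspn (asporin) at 50.4, 53.6 and 44.4 and 2.71, 1.57 and 3.05 FPKM, Ogn (osteoglycin) from 611 to 127 FPKM and Omd from 29.7 to 2.42 FPKM. Eln (elastin) rose from 0.199 to 9.49 FPKM (log2 fold change 3.12 ± 0.10 SE, adjusted p = 2.18e-09), and Loxl1, an enzyme that crosslinks it, fell from 55.8 to 13 FPKM.

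Of 10 smooth muscle genes, 2 were called lower and 0 higher (median -1.23), namely Myl9 from 109 to 22.1 FPKM and Actg2 from 43.5 to 10.1 FPKM. Acta2, smooth muscle α-actin, was at 1149, 1157 and 1056 FPKM in control cells and 533, 369.7 and 428 FPKM with NFIA and was not called. Of 13 progenitor and fibroblast markers, 5 were called higher and 0 lower (median 1.34). Dpt (dermatopontin) rose from 1.54 to 111 FPKM, Sfrp1, a secreted Wnt antagonist, from 0.2301 to 27.7 FPKM, Gas6 from 30.1 to 324 FPKM and Cd34 from 12.9 to 107 FPKM. Pdgfra, the receptor that marks adipocyte progenitors, was at 8.58, 10.6 and 9.36 FPKM in control cells and 9.396, 10.3 and 9.64 FPKM with NFIA, with overlap between the groups (log2 fold change 0.04 ± 0.14 SE, adjusted p = 0.817).

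Cell cycle genes gave no call. None of 33 passed in either direction by limma, where 4.87% of all genes tested were called higher and 3.30% lower. At an adjusted p under 0.05 without the fold threshold, 8 were higher and 5 lower (median 0.06). For all 12324 genes tested these counts were 3852 and 5065. Mki67, the marker of dividing cells, was at 1.55, 1.57 and 1.41 FPKM in control cells and 1.98, 1.75 and 3.797 FPKM with NFIA (log2 fold change 0.44 ± 0.19 SE, adjusted p = 0.0621). NFIA replicate 3 was the highest of these, and without it the median of the list was -0.10.

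Of 21 interferon-stimulated genes, 2 were called higher and 2 lower (median -0.19). Ifi27 was at 52.8, 56.1 and 58.7 FPKM in control cells and 289.6, 278 and 286 FPKM with NFIA, while Ifit1, an antiviral RNA-binding protein, was at 8.41, 9.53 and 12.5 and 0.674, 0.939 and 1.095 FPKM and Bst2 (tetherin) fell from 24.04 to 5.27 FPKM. Of 15 chemokine and cytokine genes, 4 were called lower and 1 higher (median -0.29), and 8 were lower and 5 higher at an adjusted p under 0.05 without the fold threshold. By the same threshold 5065 of all 12324 genes tested were lower and 3852 higher. The genes called lower were the neighbouring CC chemokines Ccl2, from 9.34 to 0.496 FPKM, Ccl7, from 38.01 to 1.95 FPKM, Ccl8, with 1 fragment in the NFIA samples against 14.4, 14.5 and 13.9 FPKM in control cells, a ratio of 304-fold (95% exact counting interval 54.2 to 12042) in favour of control cells, and Ccl11, from 38.3 to 1.23 FPKM. Cxcl14 was the 1 gene called higher, with 2 fragments in the control samples and 6.82, 8.805 and 9.69 FPKM with NFIA.

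**Figure D4:**
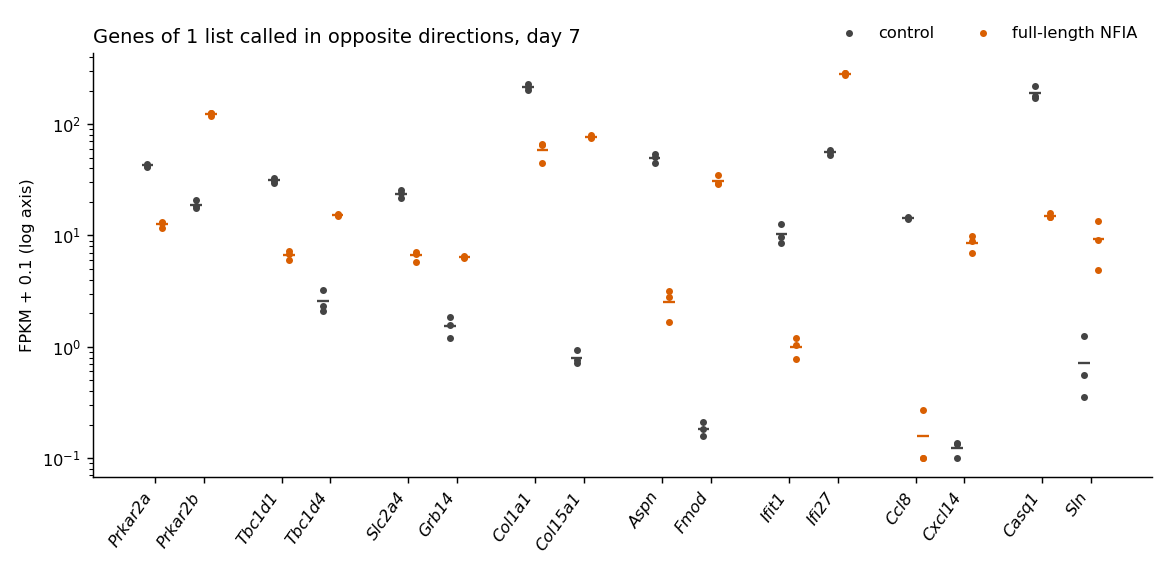
FPKM + 0.1 (log axis) in each control sample (grey) and full-length NFIA-expressing sample (orange) at day 7, in pairs of genes of the same list that were called in opposite directions; points are samples and bars are group means. Prkar2a, Tbc1d1, Slc2a4, Col1a1, Aspn, Ifit1, Ccl8 and Casq1 are lower with NFIA, and Prkar2b, Tbc1d4, Grb14, Col15a1, Fmod, Ifi27, Cxcl14 and Sln are higher.

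The cell types were checked against their markers. The summed level of 7 adipocyte markers was 163 to 188 FPKM in control cells and 12531 to 13928 FPKM with NFIA, with 6 of 7 called higher and Lep close to 0. The 7 skeletal muscle fibre markers, all called lower, summed to 9609 to 11184 FPKM in control cells and to 1576 to 2149 FPKM with NFIA, so full-length NFIA-expressing samples still held muscle fibre RNA at high levels. The 5 myoblast markers summed to 725 to 830.4 and 259 to 327 FPKM, with the mean of Pax7, the marker of satellite cells, under 1 FPKM in both groups.

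Markers of other mesenchymal types moved with the groups in part. The 7 osteoblast markers summed to 19.3 to 21.5 FPKM in control cells and 96.9 to 113 FPKM with NFIA, carried by Bglap2, from 13.6 to 74.02 FPKM, and Bglap, from 0.389 to 20.2 FPKM, 2 near-identical genes whose split is uncertain. Alpl, the alkaline phosphatase, was called higher as well, from 0.0285 to 5.13 FPKM, Runx2 was at 6.499 and 3.41 FPKM and not called, and Ibsp, Sp7 and Dmp1 were under 0.5 FPKM. The 6 chondrocyte markers summed to 3.02 to 3.55 and 38.03 to 39.8 FPKM, carried by Comp, from 0.00816 to 25.9 FPKM, and Sox9, from 3.08 to 12.9 FPKM, while Acan was at 0 and Col2a1 close to 0 in both groups. The 5 smooth muscle markers summed to 1306 to 1389 and 440.2 to 630.1 FPKM. Of 7 macrophage markers none was called, the sum was 19.2 to 19.7 and 14.2 to 16.4 FPKM, mostly of the lysosomal Cd68, and Ptprc and Adgre1 were at or close to 0. Lyz2 of the same list was at 0.0621, 0.0562 and 0.0807 FPKM in control cells and 1.29, 1.102 and 1.82 FPKM with NFIA (log2 fold change 1.16 ± 0.11 SE, adjusted p = 5.08e-06), under 3-fold on the FPKM + 1 scale. All 5 endothelial markers were under 0.5 FPKM in both groups. The part of these markers in the results above was not tested.

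The effect of NFIA was then compared between day 7 and day 0, before adipocyte differentiation was induced. Control cells of day 0 already held muscle RNA, with Myog at 162 and Acta1 at 245 FPKM. At day 0, 298 genes were higher with NFIA (2.46% of 12105 tested) and 336 lower (2.78%). Of the genes called higher at day 7, 118 were also called higher at day 0, which is 19.7% of the day 7 list and 39.6% of the day 0 list. For the lowered genes it was 139 genes, 34.2% and 41.4%. The difference of the effects was tested over the 12 samples of both groups and times, with the 6 mutant samples of those days in the same limma fit. Control replicate 2 of day 0 stood apart in Nfia, at 0.879, 7.35 and 0.175 FPKM in the 3 control samples of that day, and also held more Eln, Fmod, Prelp and Clec3b than the other two. In 562 genes (4.53% of 12408 tested) the log2 fold change was higher at day 7 and in 384 (3.09%) lower, by more than 3-fold at an adjusted p under 0.05. For genes close to 0 FPKM at day 0, the added 1 FPKM holds the day 0 fold change near 0, so their difference is not a difference of FPKM ratios. Plin1, at 0.00733 and 0.8201 FPKM at day 0 and at 2.79 and 344 FPKM at day 7 in control and NFIA cells, is such a gene, and the counts of lists given next are over the genes tested on both days. Without control replicate 2 of day 0, the counts over all genes were 560 and 380 genes, and the difference for Nfia itself went from 2.20, past the threshold, to 1.37, short of 3-fold.

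On the log2(FPKM + 1) scale the largest positive differences were in Cyp2e1 and Rbp4. Cyp2e1 had no fragment at day 0, so its fold changes cannot be compared between the days. Rbp4 was under 1 FPKM in both groups at day 0. It had 3 fragments in control cells and 71 with NFIA at day 0, and 3 and 21244 at day 7. Its difference was 7.46 to 8.43 over 20 alternatives, limma-voom on fragments among them. Cmbl, a hydrolase, was at 13.8 and 5.89 FPKM at day 0 and at 5.52 and 389.9 FPKM at day 7 in control and NFIA cells (difference 7.01 ± 0.13 SE, adjusted p = 1.24e-16 by limma), with log2 fold changes of -1.11 at day 0, under 3-fold, and 5.90 at day 7. The largest negative differences were in Il1rn, the interleukin 1 receptor antagonist, at 3.36 and 59.1 FPKM at day 0 and at 43.4 and 7.11 FPKM at day 7 (-6.30 ± 0.25 SE), and Sfrp2, a secreted Wnt antagonist, at 7.07 and 1484 FPKM at day 0 and at 8.57 and 24.04 FPKM at day 7 (-6.17 ± 0.25 SE). The log2 fold change of Il1rn was 3.79 at day 0 and -2.51 at day 7, and that of Sfrp2 was 7.55 and 1.39, the latter under 3-fold.

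Of 14 myosin and thick filament genes tested on both days, the log2 fold change with NFIA was higher at day 7 in 5 and lower in 1. Of 19 actin, troponin and thin filament genes it was higher in 6 and lower in 1, of 20 excitation-contraction genes higher in 4 and lower in 2, and of 18 Z-disc and costamere genes higher in 3 and lower in 5 (median difference -0.74). Acta1 was at 245 and 1.54 FPKM at day 0 and at 2825 and 727 FPKM at day 7 in control and NFIA cells, so its log2 fold change with NFIA was less negative at day 7 (difference 4.64 ± 0.12 SE, adjusted p = 7.53e-15 by limma). The same held for Myh3 (69.6 and 0.102 FPKM at day 0 and at 291 and 74.9 FPKM at day 7, difference 4.00 ± 0.24 SE), Myog (difference 3.09 ± 0.22 SE) and Mymk (3.83 ± 0.18 SE). The log2 fold change was more negative at day 7 for Csrp3, the muscle LIM protein, at 1.599 and 0.0303 FPKM at day 0 and at 367 and 18.2 FPKM at day 7 (difference -2.93 ± 0.17 SE), Casq1, the calcium store protein calsequestrin, at 1.03 and 0.322 FPKM at day 0 and at 191 and 14.97 FPKM at day 7 (-2.95 ± 0.13 SE), and Pgam2, a glycolytic enzyme of muscle, at 4.26 and 0.434 FPKM at day 0 and at 314 and 12.8 FPKM at day 7 (-2.63 ± 0.11 SE). All 3 were low at day 0, where the added 1 FPKM shrinks the fold change. At day 0 Csrp3 had 120 fragments in control cells and 1 with NFIA, too few to order its FPKM ratios between the days. Myf6, Mybpc1 and Tcap were under 1 FPKM in both groups at day 0, where the added 1 FPKM holds the fold change near 0. Myf6 had 76 fragments in control cells and 4 with NFIA at day 0, and 6752 and 27 at day 7. Its difference was -5.66 to -4.10 over 20 alternatives, limma-voom on fragments among them. The differences of Mybpc1 and Tcap are not compared here. For Myod1, at 43.7 and 17.8 FPKM at day 0 and at 73.2 and 24.6 FPKM at day 7, the difference of -0.31 ± 0.20 SE did not pass (adjusted p = 0.171 by limma).

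Among the adipocyte genes, the effect on Pparg, at 2.26 and 14.2 FPKM at day 0 and at 5.95 and 39.5 FPKM at day 7, differed by 0.33 ± 0.11 SE and that on Cebpa, at 6.7 and 38.98 FPKM at day 0 and at 8.63 and 89.02 FPKM at day 7, by 0.85 ± 0.19 SE, both short of 3-fold. Their log2 fold changes at day 0 were 2.22 and 2.37. The effect was higher at day 7 in 11 of 18 fatty acid and triglyceride synthesis genes and 4 of 12 lipid droplet genes, and lower in none of either list by the same rule of limma. Scd1 was at 178 and 358 FPKM at day 0 and at 266 and 4392 FPKM at day 7 and Fabp4 at 0.232 and 10.9 FPKM at day 0 and at 151 and 11386 FPKM at day 7. Lpl, at 34.6 and 383 FPKM at day 0 and at 174 and 946 FPKM at day 7, had a difference of the opposite sign (-0.996 ± 0.14 SE, not called).

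Of 20 collagen genes, the effect was lower at day 7 in 3 and higher in 3. Of 21 elastic fibre and proteoglycan genes, the effect was lower at day 7 in 8 and higher in 1 (median difference -1.02, against -0.08 for all genes). Eln was at 0.485 and 194 FPKM at day 0 and at 0.199 and 9.49 FPKM at day 7 (difference -4.05 ± 0.31 SE). Its control value at day 0 came mostly from replicate 2, with 0.0438, 1.402 and 0.00995 FPKM, and without that sample the difference was -4.45. Col1a1, at 276 and 475 FPKM at day 0 and at 217 and 58.5 FPKM at day 7, had a log2 fold change of 0.78 at day 0, under 3-fold, and of -1.89 at day 7 (difference -2.67 ± 0.18 SE, adjusted p = 1.40e-09 by limma), and Pdgfra, at 4.41 and 22.5 FPKM at day 0 and at 9.51 and 9.76 FPKM at day 7, had overlapping groups at day 7 (difference -2.08 ± 0.15 SE). Of 33 cell cycle genes, the effect was lower at day 7 in 4 and higher in 0. Their median log2 fold change was 1.36 at day 0 and 0.06 at day 7.

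**Figure D5:**
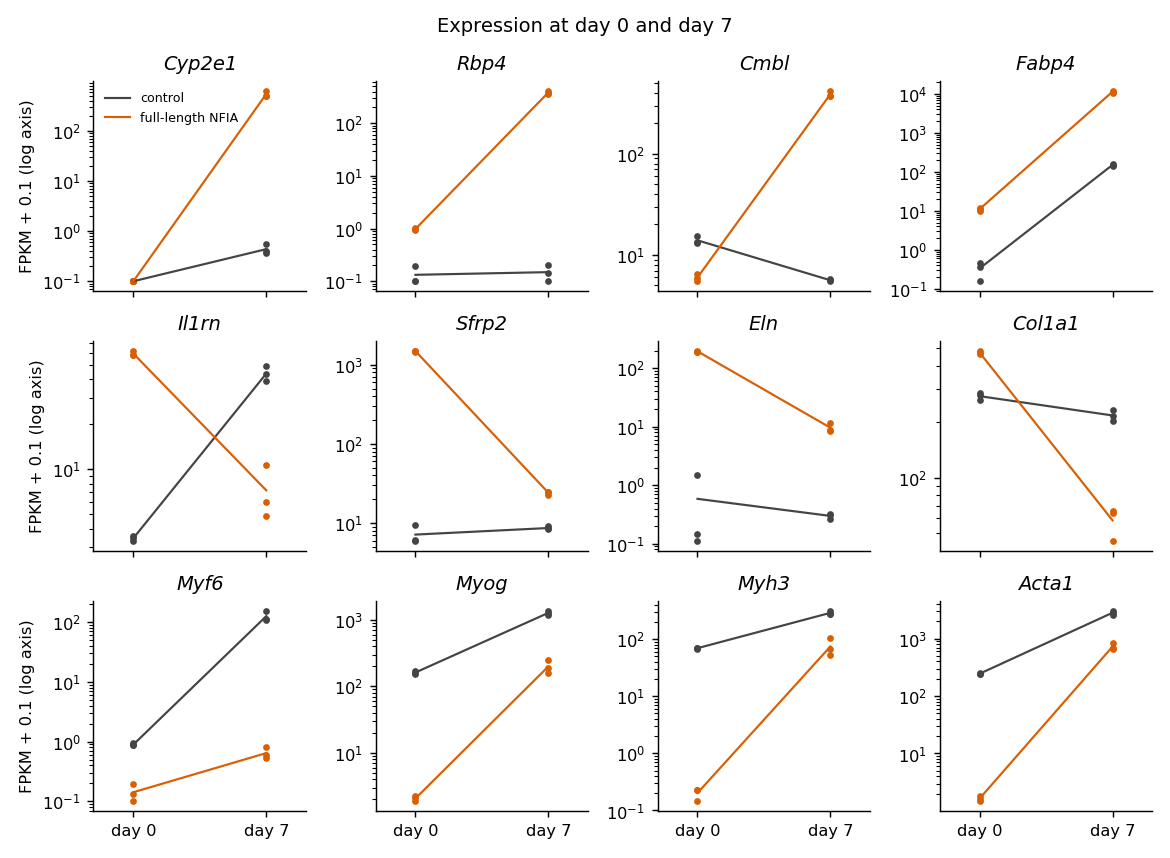
FPKM + 0.1 (log axis, one scale per gene) of 12 genes at day 0 and day 7 in control (grey) and full-length NFIA-expressing cells (orange); points are the 3 samples of a group and lines join group means. The lines of the groups cross for Cmbl, Il1rn and Col1a1, and at day 7 Myf6 stands at 126 FPKM in control cells and at 0.544 FPKM with NFIA.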

How the data were processed

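Polyadenylated RNA of C2C12 cells had been sequenced, and the comparison used 6 samples at day 7, with the 6 samples of the same constructs at day 0 for the difference between days and the mutant samples of those days for the estimate of the spread. Groups were taken from the labels. The authors aligned reads with STAR 2.5.3a to mm9, kept unique reads, counted fragments on the matched strand and deposited FPKM per gene, without scaling between samples or a log scale. All values (100%) were whole multiples of 1 fragment within a tolerance of 0.1, so fragments were recovered for depth, intervals and 1 alternative.

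limma 3.58.1 (R 4.3.3) was fitted to log2(FPKM + 1), 1 mean per group, with variances moderated towards a mean-dependent trend, over genes with a mean of at least 0.5 FPKM. Tests were 2-sided with Benjamini-Hochberg adjustment over all genes tested. Single ratios and shares used the exact permutation test of 3 against 3 samples (smallest p 0.1). On simulated data with 12327 genes, with 200 given known fold changes, the day 7 fit recovered 82% of them, with 1 unchanged gene among 165 calls. Named genes are the 8 largest rises and 8 largest falls among called genes with a mean of at least 1 FPKM and no overlap, key members of 26 hand-written lists (536 entries, 2 not found by name), the 2 called members with the largest change of each list, the called member with the largest change against its list, and the 4 largest differences between days in each direction. Other genes are named as values of their list. The lists and the genes were chosen with earlier results of these data known. Alternatives were a pseudocount of 0.1, median-ratio scaling, no filter, a minimum of 5 FPKM, only the samples compared, no trend, the replicate number as a block, limma-voom on fragments, and each sample left out. Coordinates are of mm9 (GENCODE), promoters of RefSeq GRCm38.p6. Samples after forskolin were not used here, and some genes are not reported here. Python 3.11.15 was used with scipy 1.17.1 and matplotlib 3.10.9.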

Additional observations from a re-analysis of the deposited data

Results flagged for a closer look

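Between day 7 and day 0, 8 genes, taken as the 4 largest differences in each direction, passed the test of the difference on the log2(FPKM + 1) scale (limma, adjusted over 12408 genes). In 4 of them both groups were above 1 FPKM at day 0. The log2 fold change with NFIA was higher at day 7 by 7.01 for Cmbl and 6.66 for Ifi27l2a, and lower at day 7, with differences of -6.30 for Il1rn and -6.17 for Sfrp2. The other 4 were under 1 FPKM in both groups at day 0, where the added 1 FPKM holds the fold change near 0. Their differences were 8.68 for Cyp2e1, 7.66 for Rbp4, -5.69 for 4930486L24Rik and -5.57 for Myf6. On this scale they mostly carry the day 7 effect. The alternatives include limma-voom on fragments, which does not add 1 FPKM. Over all 20, the differences were 7.46 to 8.43 for Rbp4, -6.66 to -5.58 for 4930486L24Rik and -5.66 to -4.10 for Myf6. Few fragments lie behind Rbp4 and Myf6 at day 0. For Cyp2e1 the fold changes cannot be compared between the days. Cyp2e1 had no fragment in the 6 samples of day 0, and Myf6 was at 0.792 and 0.0422 FPKM at day 0 and at 126 and 0.544 FPKM at day 7 in control and NFIA cells. 4930486L24Rik was at 0.396 and 0.525 FPKM at day 0 and at 127 and 1.73 FPKM at day 7. Adjusted p-values ranged from 6.16e-18 (Rbp4) to 1.82e-08 (Ifi27l2a), and all 8 kept their direction and call under all 20 alternatives.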

How the results depend on the processing

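With a pseudocount of 0.1, 866 genes were called higher and 703 lower at day 7, and the effect was higher at day 7 than at day 0 in 811 genes and lower in 632. limma-voom on the recovered fragments gave 890 and 750 genes at day 7, among them all 1007 of the main calls, and 873 and 677 for the difference. Both treat low values differently from log2(FPKM + 1). Leaving out each sample gave 583 to 615 higher and 387 to 418 lower genes at day 7, and 554 to 575 and 369 to 405 for the difference. Median-ratio scaling moved the median of all genes by 0.09 (log2) and gave 646 and 372 genes at day 7.

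Same-numbered samples of the groups correlated at 0.0617, 0.161 and -0.0158 in their deviations at day 7 and were not treated as pairs. With the replicate block, 600 genes were called higher and 407 lower at day 7, the same genes as without it, and 562 and 384 for the difference.

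The direction turned for values close to 0. Leaving out each sample gave log2 fold changes of -0.0272 to 0.111 for Pdgfra, medians of -0.0098 to 0.0615 for collagens and of -0.104 to 0.192 for cell cycle genes, and differences of -0.0117 to 0.0844 for the myosin ratio. These were Pdgfra at -0.0272 without control replicate 1, the median of collagens at -0.0098 without control replicate 2, the median of cell cycle genes at -0.0071 with a minimum of 5 FPKM and at -0.104 without NFIA replicate 3, and the difference in the ratio of adult to developmental myosins at -0.0117 without NFIA replicate 2. Among the named genes, Klf15, Adrb3, Ppargc1a and Myod1 passed 3-fold with the pseudocount of 0.1 (log2 fold changes 1.61, 3.61, 1.89 and -1.59) and with limma-voom, and Myod1 also without control replicate 2, NFIA replicate 1 or NFIA replicate 3. Medians of 10 other lists moved by over 1.5 times in at least 1 alternative, with ranges of -1.28 to -0.45 for myogenic transcription factors, -0.39 to -0.19 for fusion and adhesion, 0.25 to 0.48 for insulin response, 0.78 to 1.44 for progenitor markers, 0.94 to 1.52 for the nuclear factor I family, -0.32 to -0.09 for interferon-stimulated genes, -0.41 to -0.17 for chemokines and cytokines, -0.01 to 0.37 for collagens, 0.02 to 0.40 for elastic fibre genes and -0.10 to 0.19 for cell cycle genes. Genes under 0.5 FPKM, such as Ucp1 and Lep, were not tested at this depth.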

Other observations

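The genes in these paragraphs were chosen after their values at day 7 were seen, so their counts are descriptions only. Genes of the acute phase and of complement stood among the raised ones, with 11 of 14 called higher. C3, the central complement component, was at 1.51, 1.75 and 1.73 FPKM in control cells and 403, 440.0 and 413 FPKM with NFIA. Lcn2 (lipocalin 2) rose from 0.222 to 92.6 FPKM, Lrg1 from 0.0778 to 68.7 FPKM, Clu (clusterin) from 0.0763 to 69.8 FPKM, and S100a8, a calgranulin of neutrophils, from 0.167 to 77.98 FPKM. Of 7 macrophage markers none was called, Ptprc and Adgre1 were at or close to 0 in both groups, and Lyz2 was at 0.0663 and 1.403 FPKM (adjusted p = 5.08e-06 by limma). Orm1 and Orm3 have similar sequences and their split is uncertain.

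Enzymes of xenobiotic and aldehyde metabolism showed 11 of 13 called higher and 0 lower. Ephx2, the soluble epoxide hydrolase, rose from 3.002 to 113 FPKM, Ces1f, a carboxylesterase, from 0.0539 to 54.7 FPKM, Aldh1a1, which makes retinoic acid, from 0.0298 to 21.6 FPKM, and Cat (catalase) from 28.95 to 312 FPKM, while Ephx1 was at 93.7 and 239 FPKM. Among mitochondrial carriers, 5 of 9 called higher and 0 lower, with Slc25a10, the dicarboxylate carrier, from 5.698 to 239.7 FPKM, and Ucp2 and Ucp3 from 16.1 to 338 FPKM and from 3.67 to 20.2 FPKM. Slc25a4, the adenine nucleotide carrier of muscle and heart, was at 353 and 327 FPKM. Both uncoupling protein paralogs were thus raised in cells that had no fragment of Ucp1.

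H19, an imprinted long noncoding RNA, was the most abundant RNA per length in control cells, at 9732, 10204 and 11078 FPKM, and was at 1481, 1534 and 1576 FPKM with NFIA. Its neighbour Igf2 fell, from 190.1, 204 and 206 FPKM to 73.8, 38.3 and 49.3 FPKM, and Cdkn1c, an imprinted inhibitor of the cell cycle, rose from 0.958 to 6.44 FPKM. Of 7 imprinted growth genes tested, 3 were called lower and 1 higher. Mgp (matrix Gla protein) fell from 3423 to 279 FPKM, Spp1 (osteopontin) from 2305 to 445 FPKM, Ankrd1 from 850.4 to 66.03 FPKM, Cyr61 from 186 to 29.7 FPKM and Ctgf from 67.6 to 12.8 FPKM, in a group with 0 of 10 called higher and 7 lower. Tnc and Thbs1, matricellular genes as well, were at 14.3 and 15.3 FPKM and at 95.99 and 93.5 FPKM. Of the muscle kelch, TRIM and small heat shock genes, 10 of 12 were called lower, among them Klhl41, which stabilizes thin filament proteins, from 283 to 29.2 FPKM, and the ubiquitin ligases of muscle Trim63 from 55.4 to 4.07 FPKM and Fbxo32 from 13.97 to 3.06 FPKM.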
